A study of Mus musculus with 4 samples.

Results

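The V segments of the T cell receptor beta chain are the 35 mouse genes whose symbols begin with Trbv, out of 31053 genes counted in a droplet single-cell data set of leukocytes from the pancreas and T cells from the pancreatic lymph node. A cell barcode was called a T barcode where it held at least 1 unique molecular identifier (UMI, one counted RNA molecule) of Cd3e, Cd3d or Cd3g, the CD3 chains of the receptor complex. Each T barcode was given the Trbv segment with the most UMIs, and barcodes with a tie for first place were left out. This gave 13376 assigned barcodes in 4 libraries. The segments were then counted in T barcodes with Cd4 but no Cd8a or Cd8b1 UMI (CD4-only), in those with Cd8a or Cd8b1 but no Cd4 (CD8-only), in those with Foxp3, the master transcription factor of regulatory T cells, and in CD8-only barcodes with at least 2 UMIs of Ccl5, a chemokine of antigen-experienced CD8 T cells (Ccl5-high).

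The study asked what deletion of Ocab (gene symbol Pou2af1), a transcriptional coactivator of lymphocytes, in T cells does in mice before diabetes. Both genotypes carried floxed Ocab alleles: Ocab fl/fl mice served as controls, and Ocab fl/fl.CD4-Cre mice added a Cre recombinase driven by the Cd4 promoter, which is active in developing CD4 and CD8 T cells alike. The pancreas libraries held flow-sorted CD45+ leukocytes pooled from 4 pre-diabetic females at 12 weeks. The lymph node libraries held T cells enriched on CD3 by magnetic separation, pooled from 5 females at 8 weeks. There was 1 library for each of these 4 groups, made with a 5′ kit, so a difference between genotypes has no replicate check, and tissue, age and cell selection cannot be told apart. The labels do not name the mouse strain. Genotypes are set side by side only within a tissue, and values for single libraries carry exact 95% Clopper-Pearson intervals, which cover counting error only. Values listed for 4 libraries follow the order pancreas control, pancreas CD4-Cre, lymph node control and lymph node CD4-Cre.

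A beta chain is built in the thymus by joining 1 V segment to a D and a J segment, with bases trimmed and added at the joints. The V segment encodes the loops CDR1 and CDR2, which mainly touch the MHC molecule, and the start of CDR3, which mainly touches the peptide. Allelic exclusion usually leaves a T cell with 1 productive beta chain. CD4 T cells recognise peptides on MHC class II and CD8 T cells on class I, and the use of V segments is known to differ between them. The alpha chain, built from Trav and J segments, completes the receptor.

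All 35 gene identifiers were found in the GENCODE M21 annotation of GRCm38 (mm10), the build named in the submitters' processing notes. The cluster lies on chromosome 6 and runs from Trbv1 (chr6:40891229-40891885) to Trbv30 (chr6:41281376-41281990) on the plus strand. Trbv31 (chr6:41557691-41558452) lies apart, 3′ of the other segments and on the minus strand, and is joined by inversion. The annotation calls 22 of the symbols V genes and 13 pseudogenes. No UMI was found in T barcodes for 9 symbols, all of them pseudogenes. The 19 segments that reached 1% of the assigned barcodes in at least 1 class and library of 50 or more assigned barcodes are called the main segments here, and none of these is a pseudogene. The other segments with UMIs, 7 in number, led in 68 barcodes together.

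The ends of the V segments show how close some of the members are. The lines below give the last 60 bases of annotated transcripts in GENCODE M21 on GRCm38, and capitals mark the stretch from the codon of the conserved cysteine, where CDR3 begins, to the end of the V segment. The Trbv13 and Trbv12 families are shown because UMIs could be split between their members:
Trbv13-1: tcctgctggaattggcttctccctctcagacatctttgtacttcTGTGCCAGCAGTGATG
Trbv13-2: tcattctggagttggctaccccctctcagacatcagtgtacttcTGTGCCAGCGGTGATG
Trbv13-3: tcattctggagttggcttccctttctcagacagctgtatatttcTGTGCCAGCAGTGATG
Trbv12-1: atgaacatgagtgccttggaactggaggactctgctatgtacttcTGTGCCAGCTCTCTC
Trbv12-2: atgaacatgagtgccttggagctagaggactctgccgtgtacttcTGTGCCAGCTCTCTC
Over the last 280 bases, Trbv13-2 (chr6:41121396-41121832) and Trbv13-3 (chr6:41130147-41130585) were identical at 91.4% of positions. Trbv12-1 (chr6:41113550-41114067) and Trbv12-2 (chr6:41118851-41119364) were identical at 88.9%, and Trbv13-1 was identical to Trbv13-2 at 88.2%. How reads that fit several members were counted is not given in the sources used here, so values of single members of these families are uncertain.

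Outside those families, the ends are shown of 4 segments whose shares leaned the same way, to CD4-only or CD8-only, in all 4 libraries. The last is Trbv15, which stood out in 1 library:
Trbv2: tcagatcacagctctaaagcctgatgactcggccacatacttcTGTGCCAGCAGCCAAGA
Trbv31: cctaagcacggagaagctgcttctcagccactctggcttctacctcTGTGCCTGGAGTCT
Trbv14: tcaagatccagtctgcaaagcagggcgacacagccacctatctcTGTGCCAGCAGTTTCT
Trbv17: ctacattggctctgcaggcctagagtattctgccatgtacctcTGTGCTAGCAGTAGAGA
Trbv15: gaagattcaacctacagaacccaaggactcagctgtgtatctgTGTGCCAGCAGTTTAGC
The main segment most like Trbv15 (chr6:41141188-41141658) was Trbv16, identical at 73.5% of aligned positions.

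The libraries held 3059 to 6963 listed barcodes, and 2843 to 6238 remained after filters on gene number, mitochondrial share and predicted doublets, with median depths of 3609.5 to 4646 UMIs. T barcodes numbered 2485, 4350, 2738 and 5252. A Trbv UMI was found in 82.8%, 86.6%, 98.4% and 97.8% of them, against 1.38% to 2.86% of the B cell barcodes of the first 3 libraries, the last holding none. The leading segment had a median of 5, 6, 9 and 8 UMIs, and 37 to 93 barcodes per library were tied. Pairs of libraries shared 21 to 70 barcode sequences. A Pou2af1 UMI was present in 77 of 2485, 72 of 4350, 64 of 2738 and 3 of 5252 T barcodes (3.10%, 1.66%, 2.34% and 0.0571%), while 51.2% of the B barcodes of both pancreas libraries held one. The labels do not say which exons were floxed, so these 5′ tags may lie outside the deleted part and check the genotype only in part. Beside the Cd3 genes that chose the barcodes, all 5 of 5 other T cell marker genes were detected in CD4-only and CD8-only barcodes of each library. The list of B cell markers summed to 80.1 to 228 CPM (counts scaled to the total UMIs of each sum) in CD4-only and CD8-only barcodes of the pancreas and to 3.20 to 37.1 CPM in the lymph node. Myeloid markers summed to 1341 to 2162 CPM in the pancreas and 148 to 186 CPM in the lymph node. The part of these markers in the results below was not tested.

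The segments were used unequally, and in similar shares by CD4-only barcodes of all 4 libraries. Trbv13-2 led in each, with 15.9% (interval 13.4% to 18.5%) of 839 assigned barcodes, 16.1% (14.5% to 17.7%) of 1987, 18.9% (16.7% to 21.1%) of 1261 and 16.2% (14.8% to 17.7%) of 2619. Trbv1, Trbv5, Trbv13-1, Trbv19, Trbv31 and Trbv16 each lay between 6.50% and 10.6% in every library. Trbv15 came to 8.82%, 7.75%, 4.84% and 5.15%, and so was higher in both pancreas libraries than in both lymph node libraries. Trbv2 came to 4.41%, 6.34%, 6.19% and 8.32%. At the other end, Trbv12-1 stayed between 0.649% and 0.872% and Trbv26 between 0.238% and 0.458%. Across the 19 main segments, the CD4-only shares of any pair of libraries had a Pearson correlation of 0.94 to 0.98. This is a description over segments, which are not independent. Between 5.50 and 10.3 percentage points of the barcodes would have to change segment to turn one distribution into the other.

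**Figure D1:**
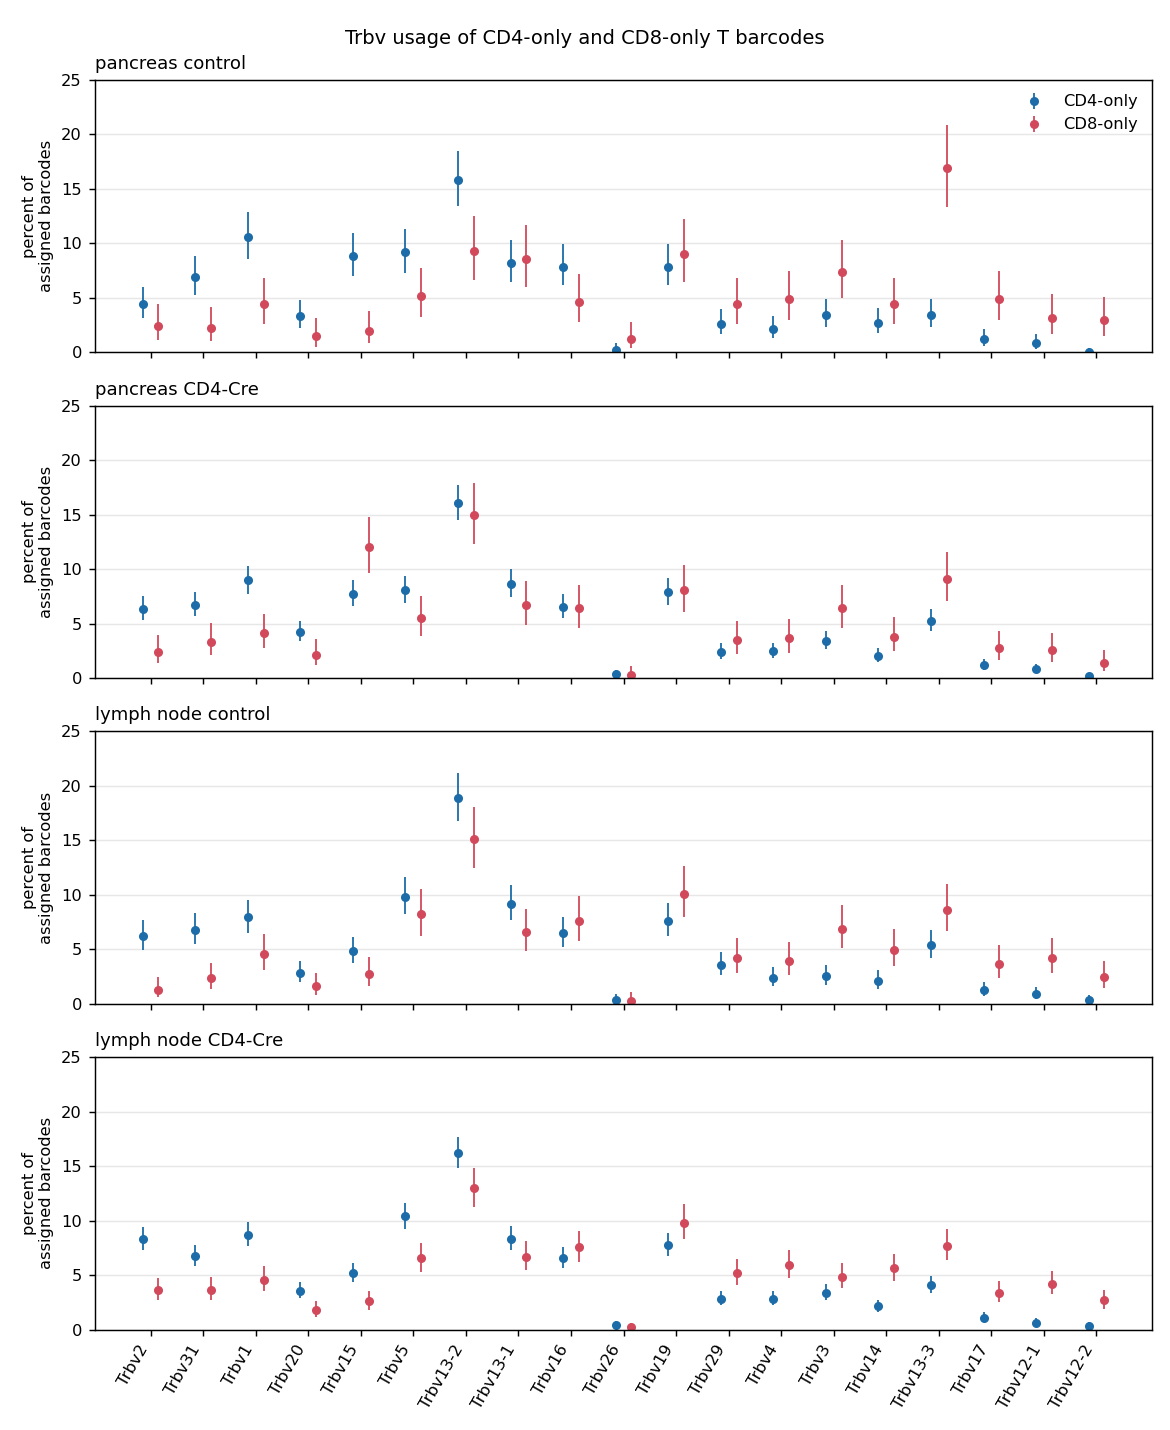
Share of assigned barcodes led by each of the 19 main segments, in percent, for CD4-only and CD8-only barcodes of the 4 libraries. Points are shares and bars are exact 95% binomial intervals. The 4 libraries lie close together in CD4-only barcodes, while Trbv13-3 of the pancreas control library and Trbv15 of the pancreas CD4-Cre library stand above the other libraries in CD8-only barcodes.

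CD8-only barcodes were more alike in the lymph node than in the pancreas. The lymph node libraries had a Pearson correlation of 0.95 over the 19 segments and differed by 7.71 points. The pancreas libraries had a correlation of 0.57 and differed by 19.7 points. Trbv13-2 led in both lymph node libraries with 15.1% (12.5% to 18%) of 682 and 13% (11.3% to 14.9%) of 1416 barcodes, and in the pancreas CD4-Cre library with 14.9% (12.3% to 17.9%) of 657. In the pancreas control library Trbv13-3 led instead, with 16.9% (13.4% to 20.9%) of 409 barcodes, against 9.13%, 8.65% and 7.70% in the other 3 libraries. Trbv15 made up 12.0% (9.64% to 14.8%) in the pancreas CD4-Cre library, against 1.96%, 2.79% and 2.61%. Trbv19 held 9.05%, 8.07%, 10.1% and 9.82%, and Trbv3 held 7.33%, 6.39%, 6.89% and 4.87%. The intervals of Trbv13-3 and of Trbv15 did not overlap between the pancreas libraries. With 1 library of each genotype, neither difference could be tested.

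The preference of single segments for CD4-only or CD8-only barcodes could be followed within each library. Of the 19 main segments, 6 had a larger share in CD4-only barcodes in all 4 libraries (Trbv1, Trbv2, Trbv5, Trbv13-2, Trbv20 and Trbv31). Another 9 had a larger share in CD8-only barcodes in all 4 (Trbv3, Trbv4, Trbv12-1, Trbv12-2, Trbv13-3, Trbv14, Trbv17, Trbv19 and Trbv29), and 4 were mixed (Trbv13-1, Trbv15, Trbv16 and Trbv26). The intervals of the CD4-only and CD8-only shares were apart in every library for Trbv1, Trbv31 and Trbv12-2. They were apart in only 1 library for Trbv4, Trbv5, Trbv13-2, Trbv20 and Trbv29. For Trbv13-1, Trbv16, Trbv19 and Trbv26 they overlapped in every library.

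**Figure D2:**
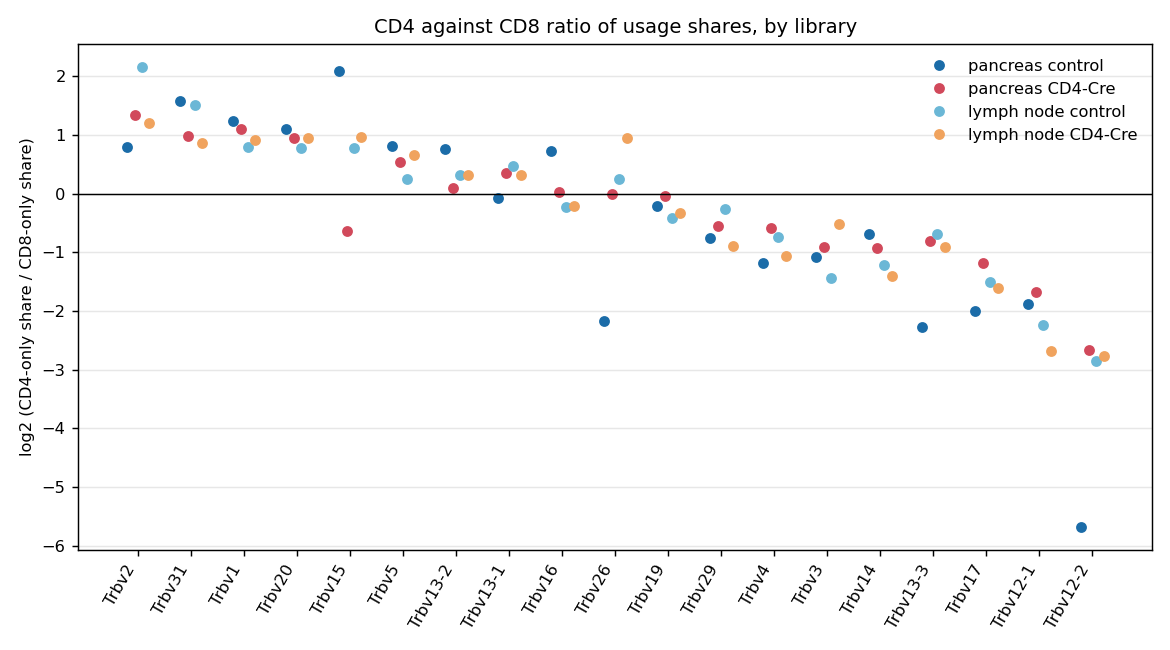
Log2 ratio of the share in CD4-only barcodes to the share in CD8-only barcodes, with 0.5 barcodes added to each count, for the 19 main segments ordered by their mean. Each dot is 1 library and values above 0 mean a larger share in CD4-only barcodes. Trbv2, Trbv31 and Trbv1 lie above 0 in all 4 libraries, Trbv12-2 and Trbv17 below 0 in all 4, and the 4 dots of Trbv15 and Trbv26 lie on both sides. The lowest dot of Trbv12-2 rests on 0 CD4-only barcodes and so depends on the 0.5 added.

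UMIs of each gene were then summed over the CD4-only and over the CD8-only barcodes of each library and compared with edgeR's quasi-likelihood test, with the library as a block, over all 10920 genes that passed the filter on low counts. A sum does not tell fewer barcodes with a segment from fewer UMIs per barcode, and p-values measure only the spread between these 4 libraries, which are pools of different tissues and genotypes. Of 22 Trbv segments tested, 7 were higher in CD4-only sums, where 5.63% of all genes were, and 6 were lower, where 5.46% of all genes were. With scaling by total UMIs alone 6 and 6 were called, and the part of all calls that were higher went from 50.8% to 60.9%. The median log2 difference was 0.00 over all genes and 0.06 over the Trbv segments.

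Trbv31, the inverted segment, was higher in CD4-only sums by 1.40 ± 0.12 on the log2 scale (SE, 4 libraries, edgeR adjusted p = 0.000536). Its barcode shares were 6.91%, 6.74%, 6.82% and 6.76% in CD4-only against 2.20%, 3.35%, 2.35% and 3.67% in CD8-only barcodes, so that the groups did not overlap. Trbv2 (chr6:41047340-41047995) was higher by 1.51 ± 0.16 (edgeR adjusted p = 0.00138). Its CD8-only shares were 2.44%, 2.44%, 1.32% and 3.60%, below each of the CD4-only shares given above. Trbv20 was higher by 1.13 ± 0.08 (edgeR adjusted p = 0.000291), with CD4-only shares of 3.34%, 4.23%, 2.85% and 3.59% and CD8-only shares of 1.47%, 2.13%, 1.61% and 1.84%. Trbv1, which lies at the 5′ end of the cluster, was higher by 1.09 ± 0.17 (edgeR adjusted p = 0.00678), with 10.6%, 8.96%, 7.93% and 8.71% against 4.40%, 4.11%, 4.55% and 4.59%. Trbv5, Trbv13-1 and Trbv13-2 were the remaining segments called higher, by 0.89, 0.55 and 0.51. Of these, Trbv13-1 was lost without the lymph node CD4-Cre, the lymph node control or the pancreas CD4-Cre library (log2 0.42, 0.51 and 0.53). It was also lost with scaling by total UMIs alone. Trbv13-2 was lost without either lymph node library (log2 0.53 without CD4-Cre and 0.52 without the control).

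The segments lower in CD4-only sums included both members of the Trbv12 family. Trbv12-1 was lower by 1.61 ± 0.16 on the log2 scale (edgeR adjusted p = 0.00106), with shares of 0.834%, 0.805%, 0.872% and 0.649% in CD4-only against 3.18%, 2.59%, 4.25% and 4.24% in CD8-only barcodes. Trbv12-2 was lower by 1.37 ± 0.15 (edgeR adjusted p = 0.00178), leading in 0 of 839 CD4-only barcodes of the pancreas control library (interval up to 0.439%) and in 0.201%, 0.317% and 0.382% of the others, against 2.93%, 1.37%, 2.49% and 2.68% of CD8-only barcodes. Trbv17 was lower by 1.42 ± 0.17 (edgeR adjusted p = 0.00237), with CD4-only shares of 1.19%, 1.21%, 1.27% and 1.11% and CD8-only shares of 4.89%, 2.74%, 3.67% and 3.39%. Trbv14 was lower by 0.91 ± 0.08 (edgeR adjusted p = 0.000699), with 2.74%, 2.01%, 2.14% and 2.14% against 4.40%, 3.81%, 4.99% and 5.65%. The CD4-only and CD8-only shares of these 4 segments did not overlap in this set of libraries. Trbv3 and Trbv4 were lower by 0.84 and 0.70. Trbv3 was lost without the lymph node control (log2 -0.66) or the pancreas CD4-Cre library (log2 -0.83), and Trbv4 was lost without the lymph node CD4-Cre (log2 -0.77) or the pancreas CD4-Cre library (log2 -0.66).

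Members of the Trbv13 family leaned in different directions despite their likeness in sequence, though not firmly for Trbv13-1. Trbv13-1 and Trbv13-2 were higher in CD4-only sums, while Trbv13-3 had a log2 difference of -0.85 ± 0.24 that missed the threshold (edgeR adjusted p = 0.0699). Trbv13-3 was called lower with DESeq2, without the filter, in either tissue alone, and with barcodes holding Cd79a, Ms4a1, Lyz2 or Trdc left out. It was also called between CD4-only barcodes without Foxp3 and CD8-only barcodes with 0 or 1 Ccl5 UMI. Its shares were larger in CD8-only barcodes in all 4 libraries, with log2 ratios of -2.27, -0.81, -0.68 and -0.91. The difference in direction between the members was not tested. For Trbv13-1 the call was kept in 8 of 13 alternatives, and its log2 ratio of shares was -0.07 in the pancreas control library. Trbv15 missed the threshold as well (log2 0.86, edgeR adjusted p = 0.259). It passed at 1.40 when the pancreas CD4-Cre library was left out (edgeR adjusted p = 0.0217). It was also called higher in the lymph node alone, and between CD4-only barcodes without Foxp3 and CD8-only barcodes with 0 or 1 Ccl5 UMI. Trbv29 had -0.38, passed at -0.60 without the lymph node control library and was also called lower in the pancreas alone. Trbv19 and Trbv16 had 0.05 and 0.06, and neither was called (edgeR adjusted p = 0.833 and 0.765).

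The genes of the receptor that do not rearrange gave a background for these sums. Of 7 such genes tested (Cd3e, Cd3d, Cd3g, Cd247, Trac, Trbc1 and Trbc2), 1 was higher in CD4-only sums and none was lower, and the sum of Cd3 genes was used to choose the barcodes. The one was Cd247, the CD3 zeta chain that carries most of the signalling motifs, at 0.30 ± 0.06 (edgeR adjusted p = 0.0234). The beta constant genes Trbc1 and Trbc2 had log2 differences of -0.31 and -0.01 and were not called (edgeR adjusted p = 0.106 and 0.965). They are near-identical copies, so their separate values are uncertain. No UMI of a Trbd or Trbj symbol was found in these sums, so the D and J partners of the segments are not given.

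Segments also differed in UMIs per barcode. In barcodes led by Trbv17 the median was 13, 13.5, 21 and 21.5 UMIs of that segment, in those led by Trbv15 it was 12, 16, 20 and 19, and in those led by Trbv1 10.5, 11, 19 and 17. In barcodes led by Trbv2 it was 2, 2, 4 and 3, and in those led by Trbv5 2.5, 3, 6 and 4. Trbv17, Trbv15 and Trbv1 thus stood above Trbv2 and Trbv5 in all 4 libraries, with higher medians in the deeper lymph node libraries. A segment with few UMIs per cell is missed more often at a given depth, so a barcode share and a share of UMIs are not the same quantity.

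Among CD8-only barcodes of the pancreas, Ccl5-high barcodes carried the segments in which the 2 libraries differed most. There were 320 and 328 Ccl5-high barcodes in the control and CD4-Cre pancreas libraries, with 288 and 308 assigned, against 24 and 67 in the lymph node, with 23 and 64 assigned. At least 2 Ccl5 UMIs were present in 2 of 795 and 1 of 1184 B barcodes of the pancreas, the background of this gate. In the pancreas control library Trbv13-3 led the Ccl5-high barcodes with 60 barcodes or 20.8% (16.3% to 26%), followed by Trbv3 and Trbv19 at 9.03% each and Trbv13-2 at 8.68%. In the pancreas CD4-Cre library Trbv15 led with 69 barcodes or 22.4% (17.9% to 27.5%), followed by Trbv13-2 at 12.0%, Trbv13-3 at 9.42% and Trbv13-1 at 7.47%. The Trbv15 share was 7.74% with barcodes of more than 1 segment left out and 35.6% with UMIs counted in place of barcodes. The share of Trbv15 in Ccl5-high barcodes of the control was 2.08% (0.768% to 4.48%).

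In the remaining CD8-only barcodes of the pancreas, with 0 or 1 Ccl5 UMI, these leads were absent. Trbv13-2 came first there in both libraries, with 10.7% of 121 and 17.5% of 349 barcodes. Trbv13-3 held 7.44% and 8.88%, and Trbv15 1.65% and 2.87%. Read the other way, 60 of 69 Trbv13-3 barcodes of the control were Ccl5-high (87.0%, 76.7% to 93.9%), against 288 of 409 over all segments (70.4%). For Trbv15 of the CD4-Cre library it was 69 of 79 (87.3%, 78.0% to 93.8%), against 308 of 657 (46.9%). Trbv3 had 26 of 30 (86.7%) in the control and 22 of 42 (52.4%) in the CD4-Cre library. Myeloid markers summed to 1015 and 2856 CPM in the Ccl5-high barcodes of the control and CD4-Cre libraries and to 2150 and 738 CPM in the others. Markers of natural killer cells, some of which CD8 T cells also express, summed to 624 and 627 CPM against 52.9 and 55.4 CPM. All 5 of 5 of them were detected except in the others of the control library, where Ncr1, Klrb1c and Klre1 were at 0. Plasma cell markers summed to 1173 and 82.5 CPM against 60.9 and 54.1 CPM, and B cell markers to 222 and 85.5 CPM against 51.3 and 73.6 CPM. The part of these markers in the shares was not tested.

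**Figure D3:**
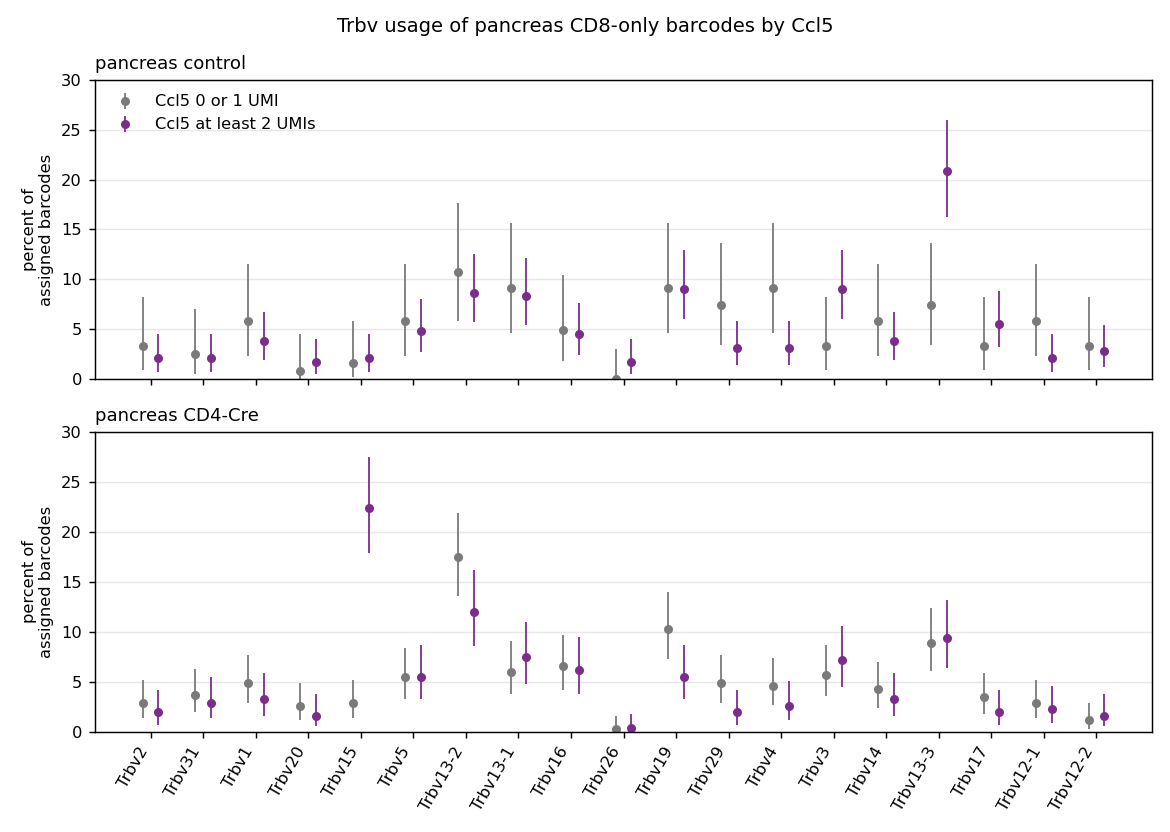
Share of assigned barcodes led by each of the 19 main segments, in percent, in Ccl5-high and other CD8-only barcodes of the pancreas libraries. Points are shares and bars are exact 95% binomial intervals. Trbv13-3 at 20.8% in the control and Trbv15 at 22.4% in the CD4-Cre library stand above all other segments in the Ccl5-high barcodes and not in the others.

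Over all 4 libraries, no Trbv segment was called higher in Ccl5-high than in other CD8-only sums. With edgeR's quasi-likelihood test over 9169 genes, 0 of 22 segments were higher (0 at an unadjusted p under 0.05, 0 with DESeq2), where 3.51% of all genes were. For Trbv15 the log2 difference was 0.47 ± 0.57 and for Trbv13-3 0.02 ± 0.27, since each was high in 1 library. One segment, Trbv14, was lower by 0.995 ± 0.26 (edgeR adjusted p = 0.0395), where 2.12% of all genes were lower. Trbv14 levels were 49.1, 52.3, 0 and 53.8 CPM in Ccl5-high sums and 104, 67.5, 86.3 and 92.4 CPM in the other CD8-only sums, lower in 4 of 4 libraries without overlap. These rested on 14, 17, 0 and 2 barcodes with the segment in the Ccl5-high group. The call was lost without the lymph node CD4-Cre (log2 -1.06) or the pancreas control library (log2 -0.87, where Trbv12-2 at -1.27 was called instead), and it was kept in 5 of 11 alternatives, with adjusted p from 4.72e-07 to 0.312. None of the 7 receptor genes that do not rearrange was called, with Trbc1 at 0.12 and Trbc2 at -0.03. With scaling by total UMIs alone the higher part of all calls went from 62.4% to 72.9%.

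The alpha segments found beside the leading beta segments were uneven in the same barcodes. Of the 59 Trbv15 Ccl5-high barcodes of the pancreas CD4-Cre library with a leading Trav segment, 47 had Trav8n-2 (79.7%, 67.2% to 89.0%), against 2 of 167 (1.20%) with other beta segments. Of the 40 Trbv13-3 Ccl5-high barcodes of the pancreas control library with a leading Trav segment, 30 had Trav16d-dv11 (75.0%, 58.8% to 87.3%), against 24 of 177 (13.6%) with other beta segments. For Trbv13-3 of the CD4-Cre library it was 9 of 17 (52.9%) against 11 of 209 (5.26%). The next most used beta segments had weaker leads, such as 4 of 20 Trbv3 barcodes of the control with Trav3-1 and 6 of 28 Trbv13-2 barcodes of the CD4-Cre library with Trav3-3. Both leading Trav genes have near-identical duplicates in the mouse genome, so the exact copy is uncertain. Counted over all T barcodes with both chains called, Trbv15 with Trav8n-2 occurred in 1 of 1415, 55 of 2579, 1 of 2184 and 1 of 3907 barcodes. Trbv13-3 with Trav16d-dv11 occurred in 33, 16, 6 and 6 of the same totals.

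A second beta segment went with the first of these pairs. Of 69 Trbv15-led Ccl5-high barcodes in the pancreas CD4-Cre library, 47 also held Trbv1 (68.1%, 55.8% to 78.8%), against 3 of 229 barcodes led by segments other than Trbv15 and Trbv1 (1.31%). Among the 47 barcodes with Trav8n-2, 46 held Trbv1, with 438 UMIs of it in all beside 1286 of Trbv15. The medians were 26 UMIs of Trbv15 and 9 of Trbv1 in Ccl5-high barcodes with both. T barcodes of that library led by Trbv1 had a median of 11 UMIs of Trbv1. Trbv1 and Trbv15 were identical at 59.2% of aligned positions, and why they occurred together was not tested. The Trbv1 end is printed below. No capitals are used because its conserved codon was not located:
Trbv1: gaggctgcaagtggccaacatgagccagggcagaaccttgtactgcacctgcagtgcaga
In CD4-only barcodes of the pancreas CD4-Cre library 2 of 154 Trbv15-led barcodes held Trbv1. Over all T barcodes, Trbv1 was found in 1 of 126, 59 of 297, 1 of 129 and 4 of 227 Trbv15-led barcodes, so the second segment was frequent in 1 library of 4. In the pancreas control library 11 of 60 Trbv13-3-led Ccl5-high barcodes held Trbv24 (18.3%), against 4 of 228 (1.75%) led by others. These second segments were noticed in the data and chosen after their values were seen.

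Barcodes with these pairs were also set beside the other Ccl5-high barcodes of their library, which is a comparison within 1 library and has no test. In the CD4-Cre library the 47 barcodes with Trbv15 and Trav8n-2 had 1996 CPM of Cxcr6, a chemokine receptor of tissue-resident T cells, against 490 CPM in 281 others. Tcf7, a transcription factor of naive and memory T cells, had 42.5 against 138 CPM, and Gzma, a granzyme, had 433 against 967 CPM. In the control library the 30 barcodes with Trbv13-3 and Trav16d-dv11 had 1080 against 653 CPM of Cxcr6. Gzma had 35.5 against 1756 CPM there, and no UMI of Tcf7 or Ccr7 was found in the 30, against 129 and 85.9 CPM in 290 others. In these 2 libraries the barcodes with the pair thus held more Cxcr6 and less Gzma and Tcf7 than the rest of the gate. Gzmb was lower in CPM (119 against 208 CPM in CD4-Cre, 135 against 252 CPM in the control). By barcodes it was found more often with the pair in CD4-Cre (25.5% against 13.5%) and less often in the control (16.7% against 22.8%). Gzmk, another granzyme, was higher (620 against 454 CPM in CD4-Cre, 526 against 415 CPM in the control). Itgae differed in direction (127 against 63.3 CPM in CD4-Cre, 35.5 against 93.0 CPM in the control). Gzma was found in 12.8% against 15.7% of barcodes in CD4-Cre and 3.33% against 25.5% in the control.

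How evenly the segments were used was summarised as the effective number, the number of equally used segments that would give the same chance of drawing the same segment from a pair of barcodes. In CD4-only barcodes it was 12.1, 12.5, 11.5 and 12.2, and in CD8-only barcodes 13.4, 13.3, 13.5 and 14.8, higher in CD8-only barcodes of all 4 libraries. With UMIs counted in place of barcodes this turned in the pancreas CD4-Cre library, with 9.09 in CD8-only against 10.7 in CD4-only barcodes. By barcodes, the CD4-only and CD8-only intervals overlapped in the pancreas control library (11.3 to 12.9 and 11.9 to 15.2). They also overlapped in the pancreas CD4-Cre library (12.0 to 13.1 and 12.2 to 14.5), and were apart in both lymph node libraries. In samples of 50 barcodes 14.5 to 14.9 different segments were expected for CD4-only and 15.8 to 16.5 for CD8-only. Ccl5-high barcodes of the pancreas had 11.6 (9.83 to 14) in the control and 10.3 (8.83 to 12.4) in the CD4-Cre library. The other CD8-only barcodes had 16.4 (14.3 to 19.4) and 13.3 (11.7 to 15.5), so that the intervals were apart in the control and overlapped in the CD4-Cre library. With the barcodes of the leading beta and alpha pair left out, the Ccl5-high values were 14.8 (13.2 to 16.8) and 13.7 (12.2 to 15.7), and Trbv13-3 then held 11.6% and Trbv15 8.43%. Barcodes without a leading Trav segment could not be judged for the pair and stayed in. Of the Trbv13-3 barcodes 40 of 60 had a leading Trav segment, and of the Trbv15 barcodes 59 of 69. The lymph node CD4-Cre library, with 64 assigned Ccl5-high barcodes, had 14.9.

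**Figure D4:**
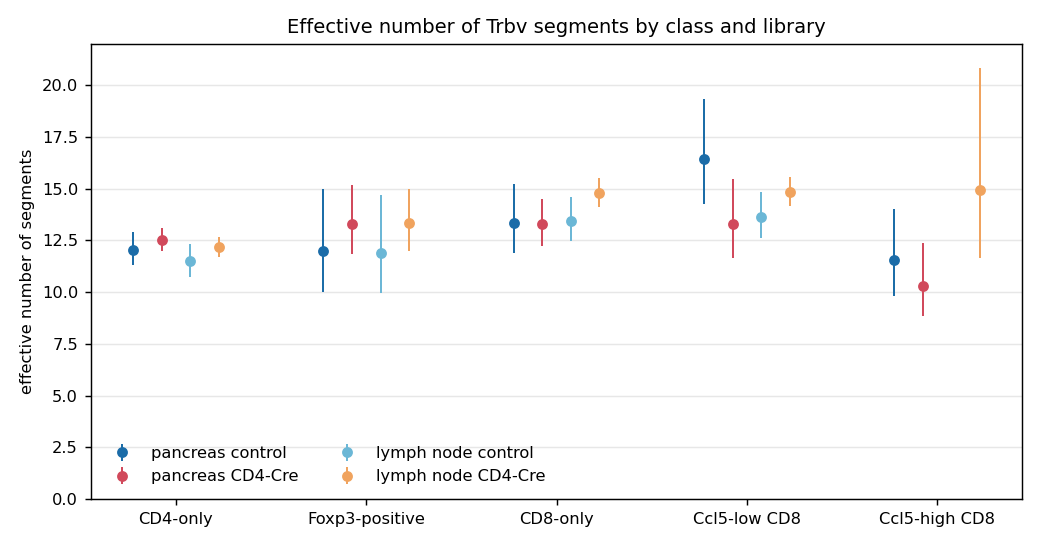
Effective number of Trbv segments (inverse Simpson index, in segments) by class of barcode and library, for classes with at least 50 assigned barcodes. Points are values and bars are 95% intervals. The Ccl5-high values of the pancreas libraries, 11.6 and 10.3, lie below the 16.4 and 13.3 of the other CD8-only barcodes.

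Foxp3-positive barcodes were led by Trbv13-2 in 3 libraries and by Trbv5 in the pancreas CD4-Cre library. They numbered 136, 223, 176 and 310, of which 120, 204, 168 and 302 were assigned. CD4-only barcodes made up 69, 141, 96 and 192 of them, and 48, 56, 60 and 90 held neither a Cd4 nor a Cd8 UMI. The other 5 genes of the regulatory T cell list, without Foxp3 itself, were all detected in each library and summed to 1688, 1783, 1295 and 1285 CPM, against 279.9, 274, 193 and 182 CPM in CD4-only barcodes without Foxp3. Trbv13-2 held 15.8%, 10.8%, 18.5% and 14.2%, Trbv5 13.3%, 13.2%, 11.3% and 10.6%, and Trbv13-1 10.8%, 9.31%, 9.52% and 6.95%. Trbv1 held 10.0%, 5.88%, 7.74% and 7.28%, and Trbv15 10.0%, 10.3%, 2.38% and 4.97%. The effective number was 12.0, 13.3, 11.9 and 13.3.

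Summed UMIs of Foxp3-positive CD4-only barcodes were compared with those of CD4-only barcodes without Foxp3, again with edgeR's quasi-likelihood test and the library as a block, over 9928 genes. Of 21 Trbv segments tested, 2 were higher, where 9.58% of all genes were, and 4 were lower, where 7.2% of all genes were. The count of higher segments was thus near the share over all genes. With scaling by total UMIs alone the counts were 3 and 3, the median of all genes moved from -0.01 to 0.19 on the log2 scale, and the higher part of all calls went from 57.1% to 81.3%. The median over Trbv segments was -0.15, or 0.04 with that scaling, so its sign depends on the scaling. The invariant receptor genes Trac and Cd247 were lower by 0.33 ± 0.10 and 0.34 ± 0.10 (edgeR adjusted p = 0.0430 and 0.0347), and Trbc1 and Trbc2 had -0.38 and -0.27 and were not called. Myeloid markers summed to 4435, 1896, 228 and 212 CPM in all Foxp3-positive T barcodes. The test used only the CD4-only ones, 69 of 136, 141 of 223, 96 of 176 and 192 of 310. In CD4-only barcodes without Foxp3 the markers summed to 1683, 1283, 183 and 161 CPM. All CD4-only barcodes of the pancreas control and CD4-Cre libraries had 2162 and 1365 CPM. The tested Foxp3-positive barcodes of the pancreas thus lay above those without Foxp3. Their own sums are not given, and the part of myeloid markers was not tested.

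Trbv1 was the segment whose lower level in Foxp3-positive sums held under all 12 alternatives. It had 158, 128, 340 and 293 CPM against 320, 286, 337 and 368 CPM, with a log2 difference of -0.77 ± 0.17 (edgeR adjusted p = 0.00612). The lymph node control library showed no lower level before the scaling of the fit. Trbv15 had 227, 314, 133 and 204 CPM against 325, 324, 215 and 243 CPM, lower in 4 of 4 libraries, with a log2 difference of -0.55 ± 0.11 (edgeR adjusted p = 0.00414). Its share of barcodes was lower in only 2 of 4 libraries, and with at least 2 Foxp3 UMIs required the difference was -0.23 and not called. Trbv31 had 84.2, 35, 157 and 114 CPM against 94.6, 128, 164 and 158 CPM (log2 -0.76 ± 0.21, edgeR adjusted p = 0.0217). It was lost without the lymph node CD4-Cre (log2 -0.80) or the pancreas CD4-Cre library (log2 -0.43).

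The remaining calls rested on few barcodes. Trbv26 had 7, 14, 5 and 34 UMIs in 3, 1, 3 and 4 Foxp3-positive barcodes, with 1 barcode holding 76.5% of them in the lymph node CD4-Cre library. Its log2 difference was 1.54 ± 0.37 (edgeR adjusted p = 0.0109), and the call was lost without that library (log2 1.09). Trbv12-2 had 7, 15, 36 and 63 UMIs in 6, 13, 11 and 15 barcodes and a log2 difference of 0.93 ± 0.28 (edgeR adjusted p = 0.0363). It was lost without the lymph node CD4-Cre (log2 0.52) or the lymph node control library (log2 0.80), and it was -0.15 in the pancreas libraries alone, a fit chosen after seeing the data. The call was also lost with DESeq2, with all listed barcodes, with doublets kept and with at least 2 Foxp3 UMIs, and was kept in 5 of 12 alternatives. Trbv30 was called lower with 0 UMIs in the Foxp3-positive sums of every library, and its 20, 19, 47 and 46 UMIs in the other sums came from 4, 4, 4 and 5 barcodes, so no fold is given. Leaving out 1 library also added calls. Without the lymph node CD4-Cre library Trbv4 (log2 -1.05) and Trbv20 (log2 -1.01) were lower, and without the pancreas control library Trbv13-3 was higher (log2 0.50) and Trbv14 (log2 -0.96) and Trbv29 (log2 -0.59) were lower.

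Many barcodes held UMIs of more than 1 Trbv segment. Among T barcodes with a Trbv UMI these were 637 of 2058 (31.0%), 1204 of 3768 (32.0%), 1126 of 2693 (41.8%) and 2014 of 5137 (39.2%). After each barcode was thinned to 2000 UMIs, with shallower barcodes left out, the shares were 21.8%, 22.4%, 27.3% and 24.8%, and at 1000 UMIs 14.1%, 15.1%, 16.2% and 15.7%. With at least 2 UMIs of the second segment required, they were 12.9%, 14.1%, 21.9% and 17.0%. CD8-only barcodes of the pancreas had 37.3% and 40.6% against 30.4% and 30.4% in CD4-only barcodes, and 26.9% and 27.2% against 19.9% and 21.4% after thinning to 2000 UMIs. The lymph node libraries had 27.6% and 22.8% in CD8-only and 28.0% and 25.8% in CD4-only barcodes at that depth. Ccl5-high barcodes of the pancreas CD4-Cre library, where Trbv15 and Trbv1 occurred together, had 47.2% before thinning and 36.3% at 2000 UMIs. Those of the pancreas control library had 39.4% and 27.8%. Foxp3-positive barcodes of the 4 libraries had 45.0%, 42.0%, 45.7% and 38.0% before thinning, and 35.5%, 26.1%, 32.1% and 24.5% at 2000 UMIs.

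The segment seen most often as the extra one was Trbv13-2, and how often depended on where the leading segment lies. The following comparison by position was chosen after seeing the data. Trbv13-2 UMIs were found in 20.2%, 21.9%, 33.9% and 31.2% of barcodes led by a segment 3′ of Trbv13-2, with Trbv31 kept apart. They were found in 3.77%, 5.11%, 7.55% and 6.64% of barcodes led by a segment 5′ of it. Thinned to 2000 UMIs, these were 11.2%, 13.7%, 16.3% and 17.0% against 0.756%, 2.49%, 4.62% and 3.76%. The groups did not overlap, and median depths of the barcodes were similar, such as 3547 UMIs for 5′ and 3562 UMIs for 3′ segments in the pancreas control library. The median number of Trbv13-2 UMIs in such barcodes was 1.

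Segments on the 3′ side near Trbv13-2 had high shares, though not in the order of their distance. Trbv13-2 was found in 26.7%, 35.9%, 51.9% and 45.9% of barcodes led by Trbv13-3, which lies 8.75 kb away, and in 20 of 50, 29 of 98, 37 of 74 and 78 of 160 of those led by Trbv14, 13.7 kb away. Those led by Trbv17, 41.7 kb away, had 33.3%, 31.7%, 52.9% and 36.9%, above those led by the nearer Trbv15 (17.5%, 21.9%, 40.3% and 33.5%) and Trbv16 (20.9%, 22.2%, 36.4% and 36.1%) in all 4 libraries. Barcodes led by Trbv29, 150 kb away on the same side, had 11.9%, 8.85%, 9.18% and 4.00%. On the 5′ side, Trbv13-1, whose sequence is as close to Trbv13-2 as given above, had 2.84%, 5.16%, 9.22% and 8.44%. Trbv13-3, Trbv14 and Trbv17 had higher shares than Trbv13-1 in all 4 libraries. The part of reads that fit several members was not tested. Trbv31, which is joined by inversion, had 3.64%, 4.80%, 17.0% and 10.5%.

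**Figure D5:**
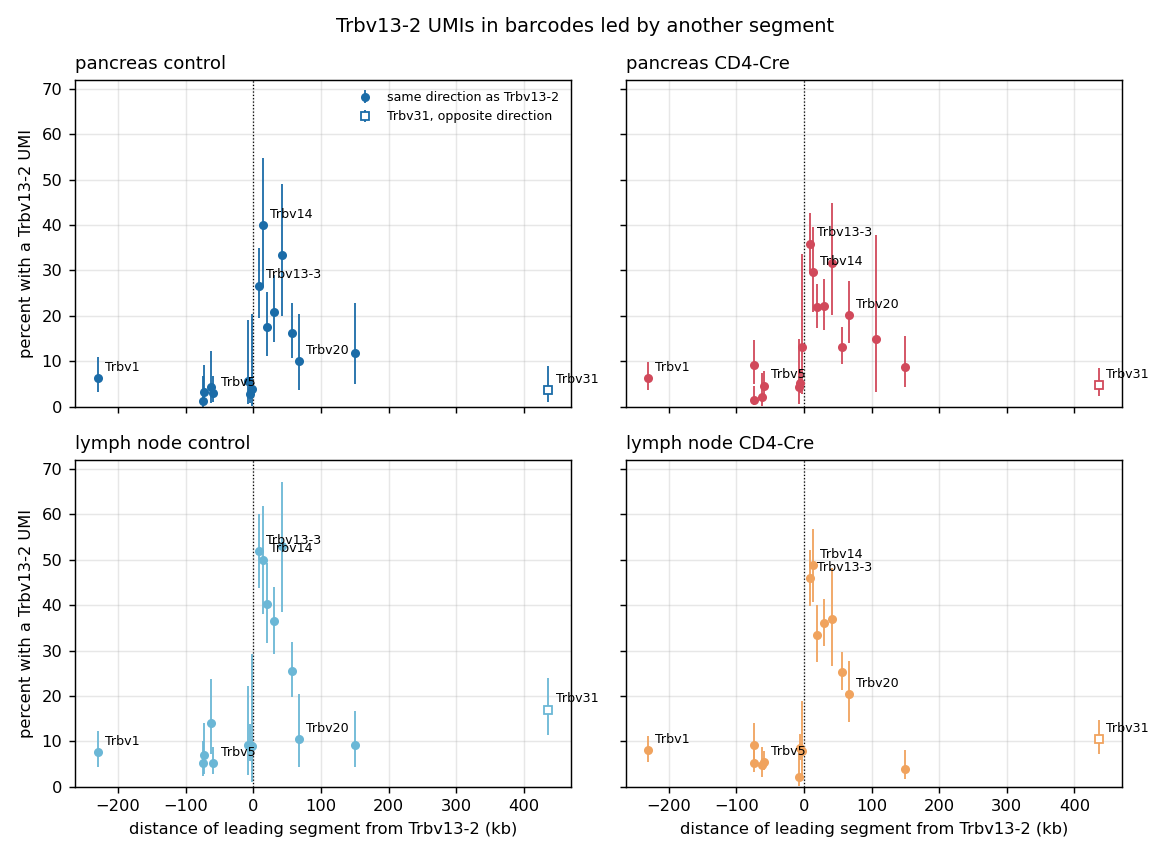
Share of barcodes with a Trbv13-2 UMI, in percent, against the distance of their leading segment from Trbv13-2, in kb with 3′ positive, for leading segments with at least 20 barcodes in a library. Bars are exact 95% binomial intervals and the open square is Trbv31. Leading segments just 3′ of Trbv13-2, such as Trbv13-3 and Trbv14, reach 26.7% to 51.9%, while Trbv13-1 on the 5′ side stays between 2.84% and 9.22%.

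The same measure was taken for each segment as the extra one, as the share among barcodes led by 3′ segments minus that among barcodes led by 5′ segments. It averaged 21 percentage points for Trbv13-2 (16.4 to 26.3 over the 4 libraries) and 6.90 points for Trbv12-2 (5.66 to 8.72), its neighbour on the 5′ side. The other 14 segments of the 16 measured averaged between -0.617 and 0.939 points. Trbv12-2 and Trbv13-2 thus stood apart in all 4 libraries, and no test was made of a pattern noticed in these data.

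Few barcodes carried the alpha segment of invariant natural killer T cells, an innate-like lineage that pairs Trav11 with Trbv13, Trbv29 or Trbv1. Trav11 led in 0, 0, 2 and 1 T barcodes, of which 0, 0, 1 and 0 held a UMI of Zbtb16, their defining transcription factor. A Zbtb16 UMI was present in 31, 43, 10 and 9 T barcodes in all.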

How the data were processed

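The deposited files hold counts of UMIs per gene and barcode, as whole numbers. Per the submitters' processing notes they were made with Cell Ranger on mm10, and per the file headers with software version 3.0.0. Barcodes with at least 500 genes and at most 10% mitochondrial UMIs were kept, and predicted doublets (0.8% per 1000 barcodes, from simulated doublets on 2000 variable genes and 30 principal components) were removed. Each T barcode was assigned its leading Trbv segment. Main segments are those with at least 1% of assigned barcodes in a class and library with 50 or more. Other named genes are those past the threshold and the receptor genes listed in the text.

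UMIs summed per library and class were tested with edgeR 4.0.16 (R 4.3.3), TMM scaling, filterByExpr with a minimum count of 10, a library block and 3 residual degrees of freedom. p-values were Benjamini-Hochberg adjusted over all genes tested, with a threshold of 0.05. SEs are the log2 difference divided by the root of the F value. The genes that define a class were left out. The test was tried on simulated data. DESeq2 1.42.0 and other settings were alternatives. Libraries were 1 per group, so genotypes and tissues were not tested. A sign-flip permutation over 4 libraries cannot go below p = 0.125. The members, gene lists and alternatives were chosen with earlier results of these data known. The position, pair and single-tissue analyses were added after seeing the data.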

Additional observations from a re-analysis of the deposited data

Results flagged for a closer look

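With 0.5 barcodes added to each count, the CD4 over CD8 log2 ratio of shares of 2 segments had one sign in both pancreas libraries and the other in both lymph node libraries. For Trbv16 it was 0.74 and 0.0234 in the pancreas control and CD4-Cre libraries and -0.23 and -0.20 in the lymph node control and CD4-Cre libraries. For Trbv26 it was -2.17 and -0.0102 in the pancreas and 0.25 and 0.95 in the lymph node. The sign of Trbv26 in the pancreas CD4-Cre library comes from the 0.5 added: its shares were 0.352% (7 barcodes) in CD4-only and 0.304% (2 barcodes) in CD8-only, so the shares themselves did not point the same way in both pancreas libraries. The difference between tissues was not tested for either segment, and tissue, age and cell selection cannot be told apart.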

How the results depend on the processing

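Of 224 alternative values of the main results, 173 kept their direction and stayed near the reported value and 51 moved. Of 642 for single segments, 575 were the same, 33 lost their call, 31 moved and 3 reversed. The cause of a change was not tested. The 7 and 6 segments called between CD4-only and CD8-only sums stayed within 1.5 times of those counts under all settings run, from 5 to 7 and from 4 to 6 with 1 library left out. No paired analysis was possible because there is 1 library per group and all carry the number 1, so the groups share fewer than 2 numbers. This concerns genotypes and tissues, since classes of barcodes were compared within libraries, with the library as a block, in every fit.

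For Ccl5-high sums, the count of lower segments was 0 with total UMIs, DESeq2, all listed barcodes or doublets kept, 3 without the filter and 2 in the pancreas alone, where 2 were higher. Leaving out 1 library gave 0 to 1 lower. For Foxp3, the count of higher segments was 1 with DESeq2, all listed barcodes, doublets kept or the pancreas alone, 0 with at least 2 Foxp3 UMIs and 5 in the lymph node alone, and 0 to 3 with 1 library left out. The count of lower segments was 9 without the filter, 7 in either tissue alone, and 3 to 6 with 1 library left out. Trbv12-2 reversed to -0.15 in the pancreas alone, and Trbv30 to 0.24 with all listed barcodes and 0.23 with doublets kept.

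The effective number with UMIs in place of barcodes was 9.73, 10.7 and 11.6 in CD4-only barcodes of the pancreas control, pancreas CD4-Cre and lymph node CD4-Cre libraries, 9.09 in CD8-only and 5.95 in Ccl5-high barcodes of the pancreas CD4-Cre library. As the exponential of the Shannon entropy it was 13.9, 14.7, 14.1 and 14.4 in CD4-only, 15.9, 15.7, 15.5 and 16.4 in CD8-only, and 14.8 and 13.6 in Ccl5-high barcodes of the pancreas. With 2-segment barcodes left out it was 10.6 and 11.3 in CD4-only barcodes of the lymph node and 13.6 in Ccl5-high barcodes of the pancreas CD4-Cre library. With the leading pair left out it was 15.4 in CD8-only barcodes of the pancreas control and 14.8 and 13.7 in Ccl5-high barcodes. The Trbv13-3 share of Ccl5-high barcodes of the control was then 11.6%, with barcodes that had no leading Trav segment kept in. The Trbv15 share of the CD4-Cre library was 8.43% so, 35.6% with UMIs counted and 7.74% without 2-segment barcodes. Shares with 2 segments were 12.9%, 14.1%, 21.9% and 17.0% with at least 2 UMIs of the second, and 29.5%, 39.2% and 36.7% in the last 3 libraries with the Trbv12 and Trbv13 families merged.

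Of 43 shares of leading segments, 20 moved with UMIs counted, 7 without 2-segment barcodes and 1 with at least 2 leading UMIs. At these depths a segment with few UMIs per cell can be missed. Of 19 main segments, the CD4-only and CD8-only intervals were apart in 0 libraries for 4, in 1 for 5 and in 2 for 1. They were apart in 3 libraries for 6 segments and in all 4 for 3.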
